A study of Homo sapiens with 6 samples.

Results

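mir-378a is a microRNA (miRNA) stem-loop encoded within PPARGC1B, and its 2 arms, miR-378a-3p and miR-378a-5p, are described here in parental and spheroid cells of MDA-MB-231, a triple-negative human breast adenocarcinoma line. The members were the mature sequences whose stem-loop name in the count tables was mir-378a, which gave 2 of the 437 listed sequences, both found in each of the 2 tables. Small RNA was sequenced as TruSeq libraries from 3 samples of parental cells, grown as an adherent monolayer in serum-containing medium, and from 3 samples of spheroid cells, grown in serum-free suspension as a culture enriched in cells with cancer stem cell properties. All samples came from this 1 line, with no other treatment and no time point in the labels. The deposited data hold 1 count table per condition and 0 columns per sample, so no value below has a replicate error. The sources conflict on what a table covers, since the sample descriptions give it for all 3 samples of its condition but the study's sample sheet sets it beside replicate 1 alone. The sequences were chosen by name and not by a cut-off on a value, but the miRNA was picked with its read counts and folds in these tables known, so its values are given as a description, without a test.

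The host gene PPARGC1B encodes PGC-1β, a coactivator of nuclear receptors that promotes mitochondrial biogenesis and oxidative metabolism. Both arms of mir-378a are known as metabolic regulators. In human breast cancer cells, the 5p arm, formerly called miR-378*, targets the estrogen-related receptor ESRRG and the transcription factor GABPA, both partners of the PGC-1 coactivators, and shifts cells from respiration towards glycolysis. In mice, the 3p arm represses carnitine O-acetyltransferase and the 5p arm represses the Mediator subunit MED13, and loss of both arms protects from diet-induced obesity. A product of mir-378a has also been linked to survival and growth of human tumour cells through repression of SUFU, an inhibitor of hedgehog signalling. A miRNA recognises its targets mostly through its seed, bases 2 to 8 counted from the 5′ end.

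The stem-loop is shown first, because both arms are cut from it. In GRCh37, the build named for the annotation of the reads, it lies on the plus strand at chr5:149112388-149112453, on the same strand as PPARGC1B and in its first intron in the MANE transcript (intron 1 of a transcript with 12 exons), overlapping no exon of the gene. The capitals mark the 5p arm and then the 3p arm.
mir-378a stem-loop: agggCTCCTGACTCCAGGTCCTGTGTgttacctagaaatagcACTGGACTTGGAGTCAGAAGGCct
The genomic sequence equals the RefSeq stem-loop of 66 bases. The arms are separated by 16 bases, and in the predicted fold 18 of the 22 bases of the 3p arm paired with the 5p arm.

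The mature sequences are shown next as listed in the count tables, with the seed in capitals. Each was matched by its whole sequence to a RefSeq mature miRNA, which gave the arm.
miR-378a-3p: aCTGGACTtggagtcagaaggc
miR-378a-5p: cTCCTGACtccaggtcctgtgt
The 3p sequence lies at chr5:149112430-149112451 and the 5p sequence at chr5:149112392-149112413, both on the plus strand. The seeds of the arms differ. The 3p seed CTGGACT was carried by 5 other listed sequences, all named as miR-378 family members or miR-422a, whereas 0 other listed sequences carried the 5p seed.

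miR-378a-3p was among the more abundant miRNAs of both cultures, and its level was close in parental and spheroid cells. It had 3795 reads in the parental and 9948 reads in the spheroid table, whose totals were 539798 and 1553014 reads. Scaled to reads per 1000000 reads of the table (rpm), these were 7030 rpm in parental cells (interval 6809 to 7257) and 6406 rpm in spheroid cells (6281 to 6532). Intervals are exact binomial 95% intervals (Clopper-Pearson) and cover counting error only, and they treat amplified reads as if each were its own molecule. The 3p arm held rank 25 among 367 sequences with reads in parental cells and rank 26 among 424 in spheroid cells. The fold, spheroid over parental, was 0.911 (0.878 to 0.946), or -0.13 on the log2 scale, beside a median log2 fold of -0.20 over all 369 sequences with a fold and -0.11 over those with at least 100 reads. Its position relative to 1 changed with the scale, being 1.02 (0.983 to 1.06) with TMM factors and 1.05 (1.01 to 1.09) with median-of-ratios factors, so that no direction is given for the 3p arm.

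miR-378a-5p was a minor product. It had 35 reads in parental and 63 reads in spheroid cells, that is 64.8 rpm (45.2 to 90.2) and 40.6 rpm (31.2 to 51.9), at ranks 170 and 188. The fold was 0.626 (0.408 to 0.975), or -0.68 on the log2 scale. The intervals of the levels overlapped, and with TMM factors the interval of the fold reached past 1 (0.701, 0.456 to 1.09). Summed over both arms, mir-378a had 3830 and 10011 reads, with a fold of 0.909 (0.875 to 0.943) that turned to 1.02 with TMM factors.

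Neither arm differed by more than 2-fold between the cultures, the fold threshold of the study's methods, when scaled to the table totals. With the total library reads of the study in place of the table totals, every fold was 2.21 times larger and that of miR-378a-3p reached 2.01 (1.94 to 2.09), but the parental table holds only 9.77% of the miRBase reads of its library, against 97.5% for that of spheroid cells. Over all sequences with a fold, 9.76% were more than 2-fold higher and 17.6% more than 2-fold lower in spheroid cells (36 and 65 sequences). The balance of these counts moved with the scale, at 43 higher and 53 lower with TMM factors and 44 and 50 with median-of-ratios factors. Of the 183 sequences that reached 100 reads in sum, 8.74% were more than 2-fold higher and 10.9% more than 2-fold lower, and miR-378a-3p lay inside both limits. The 5p arm, with 98 reads over both tables, fell just short of that read minimum.

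**Figure D1:**
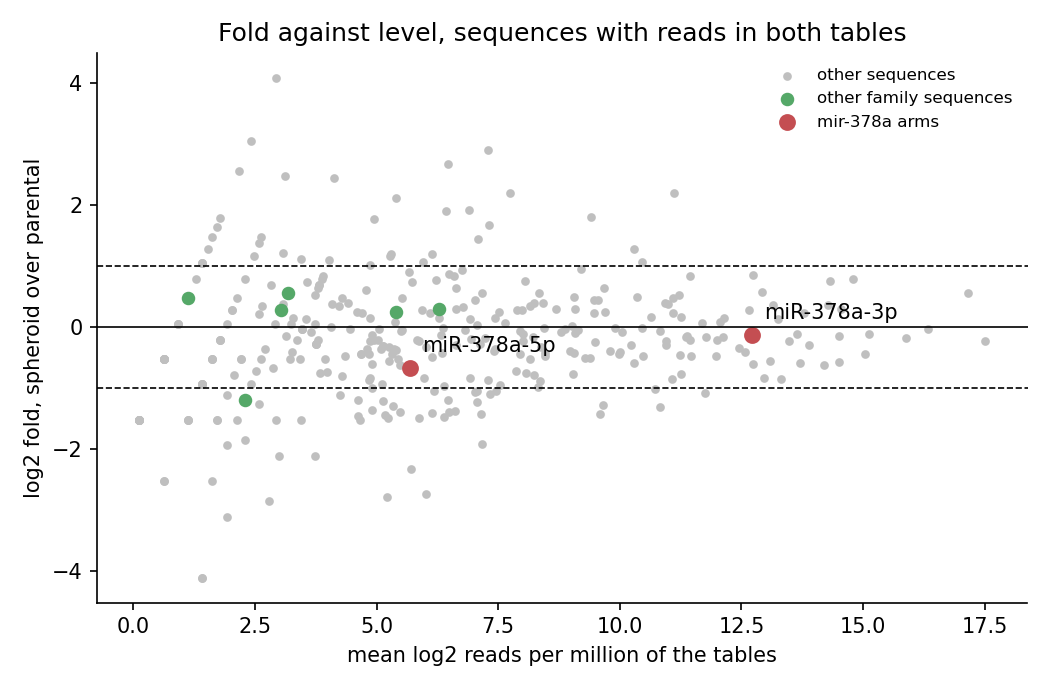
Fold against level for the sequences with reads in both tables. The x axis is the mean of the log2 rpm of the tables and the y axis the log2 fold, spheroid over parental, with dashed lines at a fold of 2 in each direction. Each point is 1 mature sequence, red for the arms of mir-378a and green for the other listed family sequences. miR-378a-3p sits near 0 (log2 fold -0.13) among the abundant sequences, and miR-378a-5p lies lower (-0.68) but inside the dashed lines.

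The stem-loop gave almost only its 3p arm in both cultures. Of the mir-378a reads, the 3p arm took 99.1% in parental cells (98.7% to 99.4%) and 99.4% in spheroid cells (99.2% to 99.5%), and these intervals overlapped. In other words, there were 108 reads of the 3p arm per read of the 5p arm in parental and 158 in spheroid cells. By reads equal to the annotated mature sequence alone, the ratios were lower, at 66.4 and 79.3, because a larger part of the 5p than of the 3p reads was exact.

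This imbalance was ordinary for the tables. Of 132 stem-loops with 2 listed sequences under a single name, 79 had at least 100 reads in each table, and the lesser sequence of mir-378a took 0.914% (0.637% to 1.27%) and 0.629% (0.484% to 0.804%) of its reads. The medians over the 79 stem-loops were 1.13% in parental and 1.30% in spheroid cells. The lesser share was under that of mir-378a in 36 of them in parental and in 29 in spheroid cells. For 65 of the 79, RefSeq named both sequences as the 5p and 3p arms. The 3 stem-loops closest to mir-378a in parental cells were mir-197 (0.901%, 1 of 111 reads), mir-221 (0.884%, 64 of 7242 reads) and mir-183 (0.952%, 12 of 1261 reads). Their shares in spheroid cells were 0 of 534 reads (0% to 0.688%), 1.41% (1.24% to 1.58%) and 1.30% (0.972% to 1.69%), respectively. Unlike mir-378a, mir-221 thus had a larger lesser share in spheroid than in parental cells by non-overlapping counting intervals. In 0 of the 79 stem-loops did the lesser sequence of the parental table become the leading sequence of the spheroid table.

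**Figure D2:**
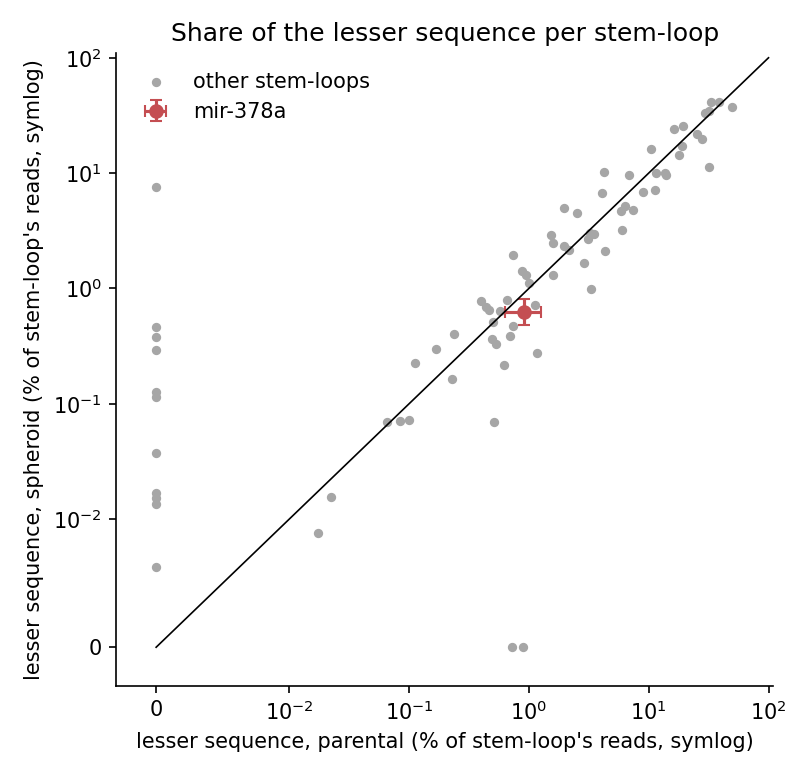
Share of the lesser sequence of each stem-loop. The axes give the reads of the lesser sequence as a percent of the reads of both sequences, in parental (x) and spheroid (y) cells, on a scale that is logarithmic above 0.01% and linear below it. The 79 points are stem-loops with at least 100 reads in each table, and the line marks equal shares. mir-378a is the red point with its 95% intervals, at 0.914% and 0.629%, close to the line and in the middle of the other stem-loops.

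The make-up of the 3p reads differed more than their number. Reads equal to the annotated 22 bases of miR-378a-3p were 1859 of 3795 in parental cells, a share of 49.0% (47.4% to 50.6%), but 3647 of 9948 in spheroid cells, a share of 36.7% (35.7% to 37.6%). The remaining reads were variants in length or sequence, whose kinds the tables do not tell apart. The exact reads therefore went from 3444 to 2348 rpm, a fold of 0.682 (0.645 to 0.721), whereas the variant reads went from 3587 to 4057 rpm, a fold of 1.13 (1.07 to 1.19). The exact share lost 12.3 percentage points, and this difference does not depend on how the tables are scaled.

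The change of the exact share was large beside that of most abundant sequences. Among the 128 sequences with at least 100 reads in each table, miR-378a-3p was 6th from the lowest difference, and 5% of the sequences had a difference of -11.8 points or lower. Counting both directions, 9 of the 128 differed by as much or more, miR-378a-3p included, 3 of them with a higher exact share in spheroid cells. The median difference was -0.59 points, with 74 sequences lower and 50 higher in spheroid cells. Over the whole tables, the exact share was 34.9% in parental and 32.7% in spheroid cells, which is a smaller step than that of miR-378a-3p and in the same direction. For miR-378a-5p the exact share was higher in both cultures, at 80.0% (28 of 35 reads, 63.1% to 91.6%) and 73.0% (46 of 63 reads, 60.3% to 83.4%). The intervals of the 5p arm overlapped, so that no difference could be detected at this depth. Every read of both arms was counted as unique to its mature sequence in both tables.

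**Figure D3:**
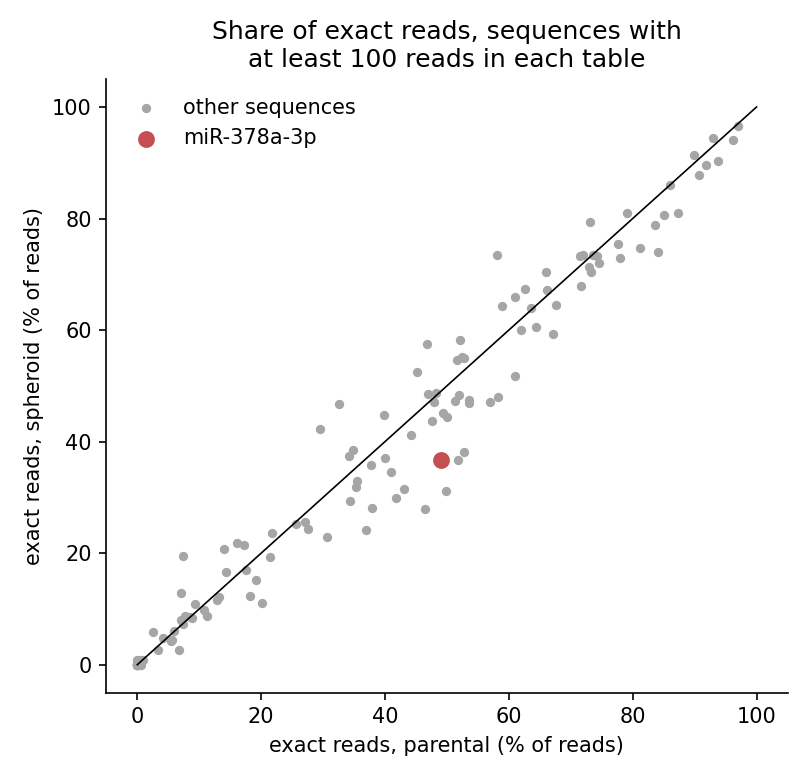
Share of exact reads in the 128 sequences with at least 100 reads in each table. The x axis gives the reads equal to the annotated mature sequence as a percent of all reads of that sequence in parental cells, the y axis the same in spheroid cells, and the line marks equal shares. miR-378a-3p, in red, lies below the line at 49.0% and 36.7%.

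The other listed members of the miR-378 family were rare in both cultures and were near-copies of miR-378a-3p. They are given here as listed, with capitals at the bases that differ from miR-378a-3p or extend past its end, because such small differences decide which sequence a read is counted for. miR-378d was also listed.
miR-378i: actggactAggagtcagaagg
miR-422a: actggacttAgGgtcagaaggc
miR-378f: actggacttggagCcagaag
miR-378c: actggacttggagtcagaagAGTGG
miR-378g: actggGcttggagtcagaag
Counted from 1 at the 5′ end, with the base of miR-378a-3p first, the substitutions were T9A in miR-378i, T14C in miR-378f, G10A and A12G in miR-422a, G21A and C22G in miR-378c, which is also 3 bases longer, and A6G in miR-378g. That of miR-378g lies in the seed.

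miR-378i had 38 reads in parental and 134 in spheroid cells, a fold of 1.23 (0.849 to 1.81). miR-378d had 21 and 72 reads, a fold of 1.19 (0.724 to 2.04). The others had at most 17 reads per table, with 4 and 17 for miR-378f, 4 and 14 for miR-378c, 4 and 5 for miR-422a and 1 and 4 for miR-378g. All of these fold intervals included 1. Of the 6 sequences, 0 were more than 2-fold higher and 1 was more than 2-fold lower (9.76% and 17.6% over all sequences, so that the share is near the background), namely miR-422a with a fold of 0.434 (0.0935 to 2.19), which was 0.50 and not past the limit with median-of-ratios factors. Their median log2 fold was 0.29. Summed, they had 72 reads (133 rpm) in parental and 246 reads (158 rpm) in spheroid cells, a fold of 1.19 (0.910 to 1.57).

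Almost none of these reads were exact. Of the 72 parental reads, 1 was equal to its annotated mature sequence, and of the 246 spheroid reads, 7 were. The rest were variants of sequences that are themselves 1 or a few bases away from miR-378a-3p, so that reads of the family members and variant reads of miR-378a-3p may be exchanged by the counting, although the tables mark nearly all of them as unique. How many were exchanged was not tested. Relative to the summed reads of miR-378a-3p and these sequences, the other members made up 1.86% of the parental (1.46% to 2.34%) and 2.41% of the spheroid reads (2.12% to 2.73%). Among the reads of all sequences with the CTGGACT seed, miR-378a-3p held 98.2% (97.7% to 98.6%) and 97.6% (97.3% to 97.9%). With the family reads added to those of miR-378a-3p, a comparison chosen after seeing the data, the fold was 0.916 (0.883 to 0.951).

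**Figure D4:**
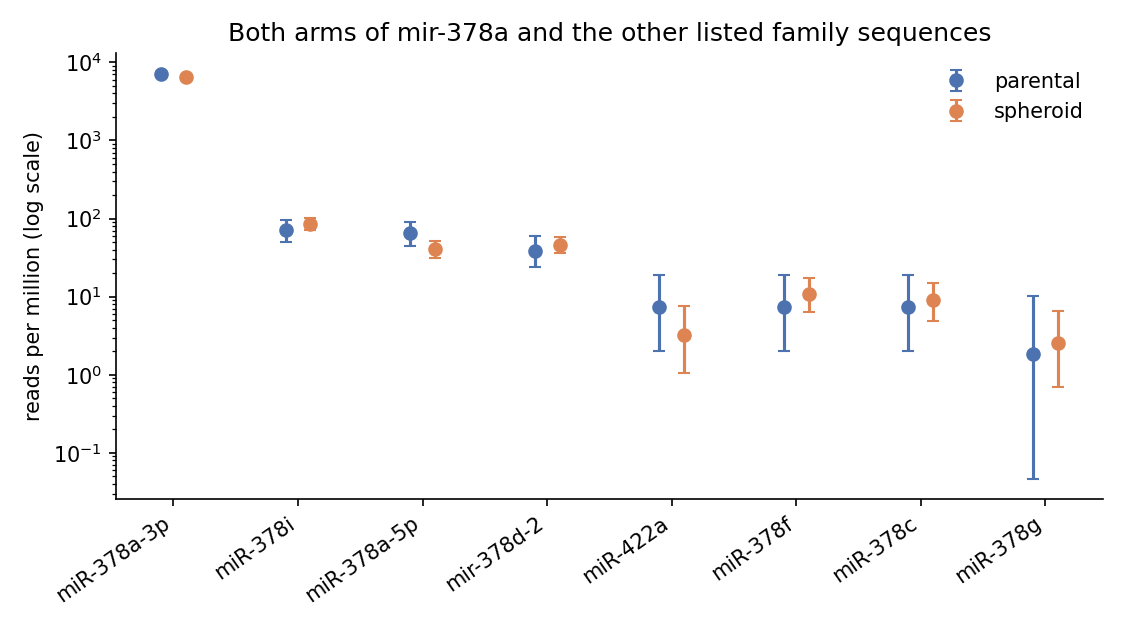
Levels of both arms of mir-378a and of the other listed family sequences. The y axis gives rpm on a log scale, in parental (blue) and spheroid (orange) cells. Bars are exact binomial 95% intervals, which cover counting error only. miR-378a-3p lies at 7030 and 6406 rpm, and every other sequence lies under 100 rpm in both tables.

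By level in both tables, the 5 sequences nearest to miR-378a-3p were miR-25-3p, the mir-151a sequence with 3159 and 11096 reads, miR-30e-5p and the mir-660 and mir-186 sequences. Nearness was the Euclidean distance of the log2 (rpm + 1) values over the 2 tables, which ranged from 0.27 to 0.58 for these. Their folds ran from 0.659 (0.636 to 0.683) for miR-30e-5p to 1.49 (1.43 to 1.54) for the mir-186 sequence, and miR-25-3p, the nearest, had 3783 and 8236 reads and a fold of 0.757 (0.728 to 0.787). The exact share of miR-25-3p was 79.1% in parental and 81.0% in spheroid cells, and that of the mir-186 sequence 34.8% and 38.5%. For the mir-151a sequence it was 25.6% in spheroid cells, a difference of -1.43 points from parental cells, for miR-30e-5p it was 0.199% and 0.128%, and the mir-660 sequence had almost no exact reads. For miR-378a-5p, the nearest sequences were miR-191-3p, miR-188-5p, miR-27a-5p, let-7i-3p and miR-3074-5p, with distances from 0.27 to 0.41. Their folds ranged from 0.564 (0.384 to 0.837) for miR-3074-5p to 0.864 (0.570 to 1.34) for miR-27a-5p.

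Other miRNAs with known roles in energy metabolism were compared by the same fold. Of 18 listed sequences from 13 named stem-loops, 15 had a fold, 3 were more than 2-fold higher and 3 more than 2-fold lower in spheroid cells (9.76% and 17.6% over all sequences), with a median log2 fold of -0.35. The lower count is near that background, and nothing is read from these counts about the list. The higher ones were miR-210-3p, a hypoxia-induced miRNA that targets the iron-sulfur scaffold gene ISCU, with a fold of 2.44 (2.21 to 2.70), miR-210-5p with 6.37 (4.02 to 10.7), and miR-143-3p, which targets hexokinase HK2, with 3.19 (2.37 to 4.40). The lower ones were the sterol-linked miR-33b-5p, which is encoded in SREBF1, with 0.264 (0.205 to 0.339), and both arms of miR-33a, encoded in SREBF2, with 0.199 (0.128 to 0.304) for the 5p and 0.463 (0.226 to 0.973) for the 3p arm. The 3p arm of miR-33a was no longer more than 2-fold lower with TMM (0.519) and median-of-ratios factors (0.533). The arms of miR-33a are named although they had under 100 reads over both tables, a choice made after their values were seen. miR-103a-3p and miR-107, which are encoded in introns of PANK genes for coenzyme A synthesis, had folds of 0.820 (0.766 to 0.879) and 0.749 (0.657 to 0.855). miR-23a-3p had 0.719 (0.686 to 0.754), the mir-23b sequence 0.963 (0.895 to 1.04) and miR-338-3p 0.919 (0.647 to 1.33).

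The miRNAs listed as markers of this basal breast line were abundant in both tables. Most of their reads were those of miR-21-5p (201714 and 173118 rpm) and the leading mir-10b sequence (83792 and 82551 rpm). No luminal line was sequenced here, so their level does not by itself mark a basal identity. The 10 listed sequences of mir-21, mir-10b, mir-100, mir-221 and mir-222 summed to 306693 rpm in parental and 275940 rpm in spheroid cells, with 0 more than 2-fold higher and 2 more than 2-fold lower (9.76% and 17.6% over all sequences). Together with mir-22 and mir-31, the 14 listed sequences of stem-loops known as abundant in MDA-MB-231 monolayers had 0 higher and 3 lower, the lower ones being miR-222-5p (0.409), miR-100-3p (0.232) and the lesser mir-31 sequence (0.468, but 0.524 with TMM factors). These counts too are near the background. miR-222-5p and miR-100-3p had under 100 reads and were named after their values were seen. The levels of miR-22-3p and miR-221-3p, 2 abundant members, had folds of 0.925 (0.910 to 0.940) and 0.921 (0.896 to 0.946), near that of miR-378a-3p. Other members with at least 100 reads covered a wider range of folds, although some of them, such as miR-31-5p, also lay close to miR-378a-3p. The folds of miR-222-3p (1.40) and the lesser mir-221 sequence (1.47) were above 1. Those of miR-21-5p (0.858), the lesser mir-21 sequence (0.869), miR-31-5p (0.896), the leading mir-10b sequence (0.985) and miR-100-5p (0.992) were under 1. The 6 listed sequences of the luminal markers mir-200a, mir-200b, mir-200c, mir-141, mir-429 and mir-375 summed to 117 and 156 rpm, and 5 of them had a fold. Of these, 2 were more than 2-fold higher (miR-141-3p, 1 and 8 reads, and miR-429, 1 and 6 reads). Only 1 was more than 2-fold lower (miR-200a-3p, 5 and 4 reads), beside 9.76% higher and 17.6% lower over all sequences. The fold intervals of miR-141-3p (0.373 to 123), miR-429 (0.253 to 95.9) and miR-200a-3p (0.0552 to 1.29) all included 1, and nothing is read from these counts. Each of them had under 100 reads and was named after its values were seen. The most abundant luminal marker was miR-200b-3p with 31 and 152 reads, a fold of 1.70 (1.15 to 2.60).

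miR-378a is abundant in muscle, liver and brown fat, and the fixed marker lists of muscle, blood and liver had few reads. The muscle markers had 4 reads in parental and 16 in spheroid cells, 0 and 14 of them those of miR-133a-3p and 4 and 2 those of miR-499a-5p, and miR-499a-5p had a fold of 0.174 (0.0157 to 1.21). Against the floor of 3 reads, miR-133a-3p was at least 1.62-fold higher in spheroid cells, a lower bound that does not say whether it passed a fold of 2. The muscle list held 9 stem-loop names, and no sequence of mir-1, mir-133b, mir-206 or mir-208 was among those listed. Of the blood markers, miR-144-5p had 1 read in each table, a fold of 0.348 (0.00443 to 27.3). The blood markers mir-451a and mir-223 had no listed sequence. The liver marker miR-122-5p had 0 and 2 reads. A sequence of mir-486, a miRNA enriched in red blood cells and muscle that was on none of these lists, had 9450 and 34829 reads, or 17506 and 22427 rpm, a fold of 1.28 (1.25 to 1.31), and is named after its values were seen.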

How the data were processed

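The deposited tables hold counts of reads per mature miRNA sequence, which the authors made with CLC Genomics Workbench 7.0 by trimming the reads, removing those under 17 or over 27 nucleotides and matching what remained to miRBase 19 and to noncoding RNA of Ensembl (GRCh37, release 57), without normalization. The tables were joined by sequence (437 sequences, 1 without a read) and scaled to the table totals. All reads, exact mature reads and unique mature reads were used. Where a table had 0 reads, the fold was a bound against a floor of 3 reads (5.56 rpm in parental and 1.93 rpm in spheroid cells), given only for more than 3 reads in the opposite table. With 1 table per condition, no test was run for mir-378a. The study's own test, Kal's Z-test adjusted by Benjamini-Hochberg, was an alternative for the counts over all sequences, and compares the reads of the tables, not the conditions.

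Arms came from RefSeq (mature sequences of GRCh38.p14), which matched 388 sequences, and 397 with a stem-loop overlap of 15 or more bases. Coordinates were taken from GRCh37 with GENCODE release 44 mapped to it, and folding used RNAfold 2.7.2. Python 3.11.15, numpy 2.4.6, pandas 2.3.3, scipy 1.17.1, matplotlib 3.10.9, and edgeR 4.0.16 and DESeq2 1.42.0 in R 4.3.3 (scale factors only) were used. The code for the intervals and folds was checked on simulated counts that held counting error only. That check cannot tell how well the intervals cover differences between replicates. The named miRNAs were both arms, the listed family members, list members with at least 100 reads (a few rarer ones and mir-486 were added after their values were seen), the 5 sequences nearest to each arm and the 3 stem-loops nearest in arm share. Members and lists were chosen with earlier results of these data known.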

Additional observations from a re-analysis of the deposited data

How the results depend on the processing

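No paired analysis was possible because the tables hold no column per sample, and for the same reason no replicate could be left out. The scale moved every log2 fold alike, by 0.16 with TMM factors, 0.20 with median-of-ratios factors and 0.08 with totals without the 5 most abundant sequences of each table. The folds of miR-378a-3p and of both arms summed were then 1.02 and 1.02, 1.05 and 1.05, and 0.964 and 0.961, respectively. With the total library reads of the study's Data S3 in place of the table totals, the folds were 2.01 for miR-378a-3p, 1.38 for miR-378a-5p and 2.01 for both arms, and 172 sequences were more than 2-fold higher and 10 lower. That scale shifts every log2 fold by 1.14, because the table totals differ 2.88-fold and those library totals by less. Of the miRBase reads of those libraries, the parental table holds 9.77% and that of spheroid cells 97.5%. With exact mature reads scaled to the totals of exact reads, the folds were 0.728 for miR-378a-3p and 0.726 for both arms. The fold of 0.682 given above for the exact reads of miR-378a-3p is scaled to the totals of all reads instead. By exact reads, the 3p share of mir-378a was 98.5% in parental and 98.8% in spheroid cells. Requiring 10 reads left 39 lower sequences, requiring 100 reads left 16 higher and 20 lower, and adding Kal's Z-test left 21 higher and 39 lower, since each of these tests fewer or calls fewer sequences. Unique reads and spheroid reads thinned to the parental total left the folds of both arms and of their sum within the counting intervals given. Depth limits the 5p arm and the family members, which had at most 134 reads per table.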
